A study of Mus musculus with 12 samples.

Results

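The CCAAT/enhancer-binding proteins (C/EBPs) were described in totipotent potential stem (TPS) cells and extended pluripotent stem (EPS) cells of the mouse. The family was taken as 5 genes, Cebpa, Cebpb, Cebpd, Cebpe and Cebpg, chosen by gene symbol, out of 55401 genes in the count files. All 5 passed the filter on low counts, so all 5 were among the 17468 genes tested. RNA-seq libraries came from 3 TPS lines and 3 EPS lines, each line sequenced as 2 technical replicates, which gave 12 libraries of oligo(dT)-enriched RNA. TPS cells were grown on feeder cells in a medium that the labels call VCED and the study's methods call CPEC, with VPA (a histone deacetylase inhibitor), a GSK3 inhibitor, EPZ004777 (a DOT1L inhibitor) and CD1530 (an agonist of the retinoic acid receptor RARγ). EPS cells were grown on feeder cells in LCDM medium, whose components the study's methods do not list. Which compounds the media of both groups share is therefore not given here. The methods name no added cytokine LIF in the TPS medium. Feeders in the study were mouse embryonic fibroblasts, so both groups can hold fibroblast RNA. The labels do not say from which cells each TPS line was made or whether the lines are clones, and they name no strain.

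C/EBPs are basic leucine zipper (bZIP) factors: a basic region contacts DNA and the zipper pairs the protein with another C/EBP or with a bZIP partner such as ATF4 or CHOP. C/EBPα and C/EBPβ drive adipocyte, liver and myeloid genes, and C/EBPα also halts the cell cycle in these lineages. C/EBPδ is induced early in adipogenesis and in inflammation, C/EBPε acts late in granulocyte maturation, and C/EBPγ has no transactivation domain of its own and pairs mostly with other bZIP proteins.

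Cebpa, Cebpb and Cebpd RNA was higher in TPS cells, whereas Cebpe and Cebpg showed no call in either direction. By fitted fold, Cebpa was 4.36-fold higher, Cebpd 3.3-fold and Cebpb 2.31-fold. Of the 5 genes, 3 were called higher and 0 lower, where 14.4% of all tested genes were called higher and 7.34% lower. In these 3 genes the lowest TPS line was above the highest EPS line, as was so for 23.5% of tested genes, against 19.1% with all TPS lines below and 42.7% apart in either direction. A call is an adjusted p below 0.05 in edgeR's quasi-likelihood test with Benjamini-Hochberg adjustment over all tested genes, and levels are given as CPM, the counts as a rate of the scaled library size. In bulk RNA, fewer cells of a type and less RNA per cell cannot be told apart.

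**Figure D1:**
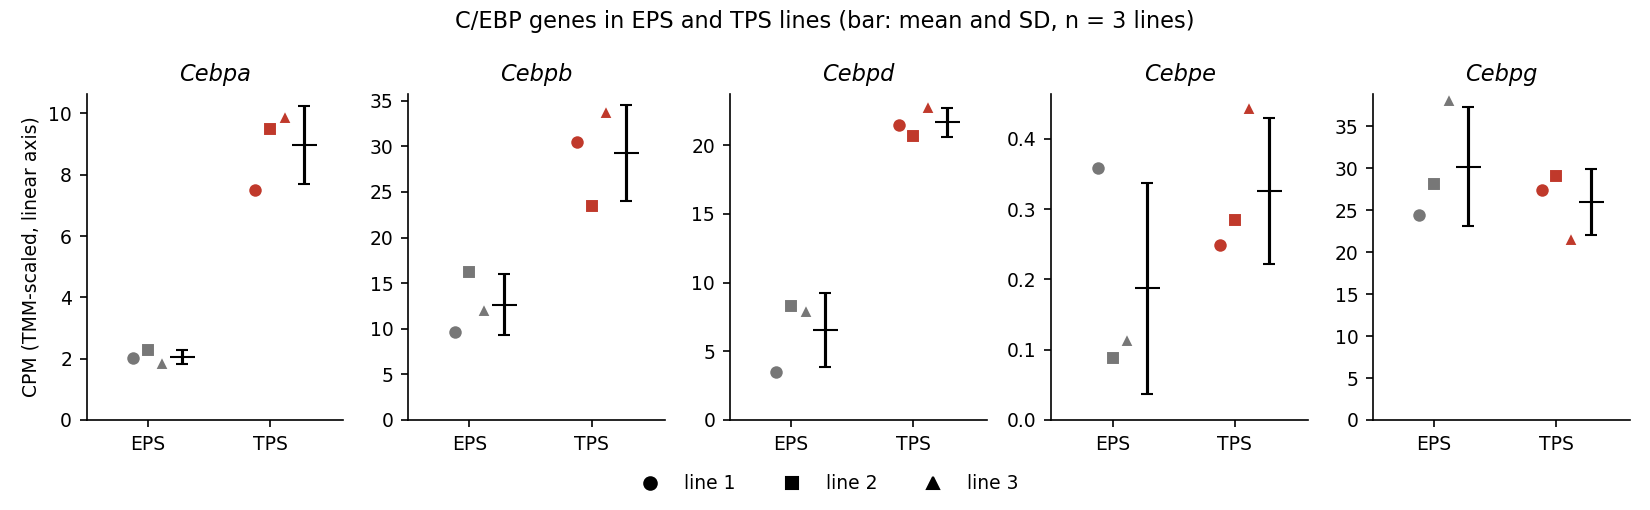
Level of each C/EBP gene in CPM in the 3 TPS and 3 EPS lines, with points for lines and bars for group means. The TPS points of Cebpa, Cebpb and Cebpd all lie above the EPS points, and those of Cebpe and Cebpg overlap.

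Cebpa lies on the plus strand of chromosome 7 at chr7:35119293-35121928 of GRCm38 and encodes C/EBPα. Cebpb, for C/EBPβ, lies at chr2:167688915-167690418 on the plus strand as a single exon. Cebpd, for C/EBPδ, lies at chr16:15887286-15891031 on the plus strand, Cebpe, for C/EBPε, at chr14:54710360-54712174 on the minus strand, and Cebpg, for C/EBPγ, at chr7:35046422-35056573 on the minus strand. Cebpg and Cebpa are neighbours, with 62.7 kb between them that holds 4 annotated genes, none of them protein-coding and all at 0 counts in the 6 lines.

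RefSeq promoters matched 3 of the 5 genes by symbol, Cebpa, Cebpb and Cebpg. They are shown because Cebpa and Cebpg are chromosome neighbours that differed in their values, while Cebpa and Cebpb shared a direction. Each run is the 250 bases before the RefSeq start in GRCm38.p6, 5′ to 3′ on the gene's strand, at chr7:35119043-35119292 for Cebpa, chr2:167688665-167688914 for Cebpb and chr7:35056567-35056816 for Cebpg. Capitals mark matches to the motifs searched on both strands.
Cebpa: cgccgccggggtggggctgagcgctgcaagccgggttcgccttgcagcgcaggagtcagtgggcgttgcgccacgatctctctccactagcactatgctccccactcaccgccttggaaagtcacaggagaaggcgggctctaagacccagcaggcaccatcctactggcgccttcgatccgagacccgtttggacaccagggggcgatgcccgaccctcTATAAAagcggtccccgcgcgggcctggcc
Cebpb: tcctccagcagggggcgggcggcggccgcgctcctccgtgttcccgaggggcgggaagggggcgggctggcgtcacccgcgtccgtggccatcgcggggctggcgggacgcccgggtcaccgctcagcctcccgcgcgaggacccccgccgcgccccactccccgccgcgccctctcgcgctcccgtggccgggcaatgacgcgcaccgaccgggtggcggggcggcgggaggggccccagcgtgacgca
Cebpg: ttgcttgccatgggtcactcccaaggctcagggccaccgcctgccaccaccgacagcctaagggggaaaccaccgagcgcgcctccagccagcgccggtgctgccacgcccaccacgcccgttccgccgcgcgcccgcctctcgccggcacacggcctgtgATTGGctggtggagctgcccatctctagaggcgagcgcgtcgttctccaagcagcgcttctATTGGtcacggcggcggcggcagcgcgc
The motifs were AGGTCA (a retinoic acid receptor core site), its direct repeats DR5 and DR2 (the site given again after 5 or 2 bases of any kind), TTGCGCAA (a C/EBP palindrome), TGATGNAAT (a C/EBP-ATF site), TGACGTCA (a CRE), TTCNNNGAA (a STAT site), CCAAT and TATAAA. Over the window of 250 bases before to 50 after the start, Cebpa held TATAAA with its first base 30 bases before the start. Cebpb held it 21 bases after the start, outside the run printed above. Of all 32851 windows of this length, 13.6% held TATAAA. Cebpg held CCAAT on the opposite strand (read as ATTGG) at 89 and 28 bases before its start, a motif of 37.4% of all windows. The other motifs had no match in the 3 windows, and among all windows AGGTCA was found in 16.3%, TTCNNNGAA in 8.3%, TGACGTCA in 1.79%, TGATGNAAT in 0.965%, TTGCGCAA in 0.183% and each direct repeat in 0.00913%. A match to these letters describes the sequence and is not evidence of binding, and no match says only that the letters are not in the window. All 3 windows were rich in GC, at 80.7% for Cebpb, 71.7% for Cebpg and 67.3% for Cebpa, against a median of 52.7%.

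Cebpa was measured at 7.51, 9.5 and 9.87 CPM in TPS lines 1, 2 and 3 and at 2.02, 2.29 and 1.85 CPM in EPS lines 1, 2 and 3. The lowest TPS line stood well above the highest EPS line, and the EPS lines were close to each other. The group means were 8.96 ± 1.27 and 2.06 ± 0.224 CPM (SD, n = 3 each), with a log2 fold change of 2.12 (SE 0.269, 95% interval 1.5 to 2.75, edgeR adjusted p = 0.00343). These levels rested on 301 to 367 counts in a TPS line and 62 to 78 in an EPS line. An annotated antisense gene, Gm45091, overlaps 313 bases of Cebpa and held at most 3 counts in any line. Among the 2509 genes called higher, 51.4% had a larger fitted log2 fold change than Cebpa.

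Cebpd was measured at 21.5, 20.7 and 22.8 CPM in the TPS lines and at 3.46, 8.27 and 7.96 CPM in the EPS lines. The TPS lines were nearly level, and EPS line 1 lay below the other 2 EPS lines. The means were 21.7 ± 1.04 and 6.56 ± 2.69 CPM (SD, n = 3 each), a log2 fold change of 1.72 (SE 0.333, 95% interval 0.95 to 2.5, edgeR adjusted p = 0.0124). Without EPS line 1 the log2 fold change was 1.39, and Cebpd was still called higher. The 2 technical replicates of EPS line 1 themselves differed beyond counting error, with 4.85 and 2.46 CPM from 61 and 45 counts (exact binomial test, adjusted p = 0.0105 over 30 pairs of replicates). Cebpd shares 562 of its 3746 exon bases with Spidr on the other strand, whose level was 35.3 ± 7.4 CPM in TPS and 49.5 ± 11.5 CPM in EPS lines (edgeR adjusted p = 0.163).

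Cebpb was measured at 30.5, 23.5 and 33.8 CPM in the TPS lines and at 9.62, 16.2 and 12.1 CPM in the EPS lines. TPS line 2 was the lowest TPS line and EPS line 2 the highest EPS line, and they did not overlap. The means were 29.3 ± 5.29 and 12.6 ± 3.33 CPM (SD, n = 3 each), a log2 fold change of 1.21 (SE 0.245, 95% interval 0.64 to 1.78, edgeR adjusted p = 0.0142). Without TPS line 3 the call was lost, at a log2 fold change of 1.09 and an adjusted p of 0.0529. Cebpb shares 312 of its 1504 exon bases, or 20.7%, with Tmem189 on the other strand, and whether counting used strand is not given in the sources used here. Tmem189 was at 32.8 ± 2.9 CPM in TPS and 27.7 ± 3.64 CPM in EPS lines, with a log2 fold change of 0.24 (edgeR adjusted p = 0.312).

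Cebpg was measured at 27.4, 29.1 and 21.6 CPM in the TPS lines and at 24.4, 28.1 and 38.1 CPM in the EPS lines. The groups overlapped, with TPS line 3 lowest and EPS line 3 highest. The log2 fold change was -0.21 (SE 0.214, edgeR adjusted p = 0.51), and its 95% interval from -0.71 to 0.28 leaves room for a fall to 0.611-fold or a rise to 1.22-fold. In EPS line 3 the technical replicates gave 43.8 and 33.2 CPM, which differed beyond counting error (exact binomial test, adjusted p = 1.1e-05).

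Cebpe had few counts, with 10, 11 and 14 counts in the TPS lines and 11, 3 and 4 in the EPS lines. Its level was 0.249, 0.285 and 0.444 CPM in the TPS lines and 0.359, 0.0882 and 0.114 CPM in the EPS lines, so the groups overlapped through EPS line 1. The log2 fold change was 0.8 (SE 0.627, 95% interval -0.65 to 2.26, edgeR adjusted p = 0.391). Without EPS line 1 it was 1.62, still with no call.

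**Figure D2:**
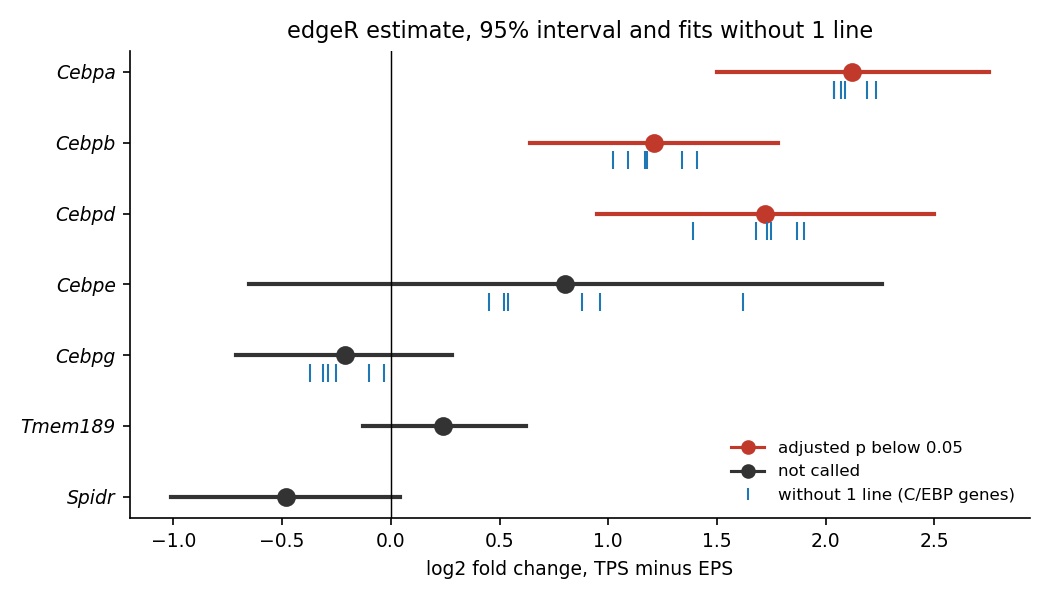
Log2 fold change of each C/EBP gene, TPS against EPS, with its 95% interval from edgeR. The intervals of Cebpa (1.5 to 2.75), Cebpd (0.95 to 2.5) and Cebpb (0.64 to 1.78) lie above 0, and those of Cebpe and Cebpg include 0.

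Per length, as TPM (the count per base of exon, scaled to the same total in each line), Cebpb was the highest family member in both cell types. It stood at 54.7 ± 9.54 TPM in TPS and 21.0 ± 6.8 TPM in EPS lines (SD, n = 3 each). In TPS lines the order of levels below it was Cebpd at 16.3 ± 0.748, Cebpg at 13.1 ± 2.03, Cebpa at 9.59 ± 1.45 and Cebpe at 0.741 ± 0.238 TPM, and no neighbours in this order overlapped, although the lowest Cebpg line (10.8) was close to the highest Cebpa line (10.6). In EPS lines Cebpg came second at 13.4 ± 4.18 TPM, ahead of Cebpd at 4.43 ± 2.08, Cebpa at 1.92 ± 0.281 and Cebpe at 0.354 ± 0.247 TPM. There Cebpb and Cebpg overlapped, as did Cebpd and Cebpa. Cebpg's place depended on the length used, since its shortest coding transcript (914 bases, against 5621 bases of exon) put it at 80.3 TPM in TPS and 82.6 TPM in EPS lines, above Cebpb.

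The summed level of the family was 94.4 ± 8.46 TPM in TPS and 41.1 ± 11.4 TPM in EPS lines. Of this sum, Cebpg made up 14.0% in TPS and 32.9% in EPS lines by exon length, Cebpa 10.2% and 4.86%, Cebpd 17.3% and 10.3%, and Cebpb 57.7% and 50.9%. With the shortest coding transcript of each gene as its length, the sums were 164 ± 2.53 and 111 ± 31 TPM, and Cebpg made up 49.0% and 74.4%. Ratios between members within a line need no scaling between libraries, and the length used cancels from their differences between groups. The log2 ratio of Cebpa to Cebpg was -0.77, -0.52 and -0.03 in the TPS lines and -2.48, -2.51 and -3.25 in the EPS lines, a difference of 2.3. The groups also did not overlap for Cebpd to Cebpg (difference 2.02), Cebpb to Cebpg (1.42), Cebpa to Cebpb (0.88) and Cebpb to Cebpd (-0.6).

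Cebpa to Cebpd was the exception, with a log2 ratio of -0.77 ± 0.21 in TPS and -1.06 ± 0.7 in EPS lines (SD, n = 3 each) and overlapping groups (exact two-sided permutation test, p = 0.6). In the 5 pairs without overlap the exact two-sided permutation test gave p = 0.1, the smallest that 3 lines against 3 allow, and 0.12 adjusted over the 6 pairs. No ratio can therefore go below 0.05 in this test.

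**Figure D3:**
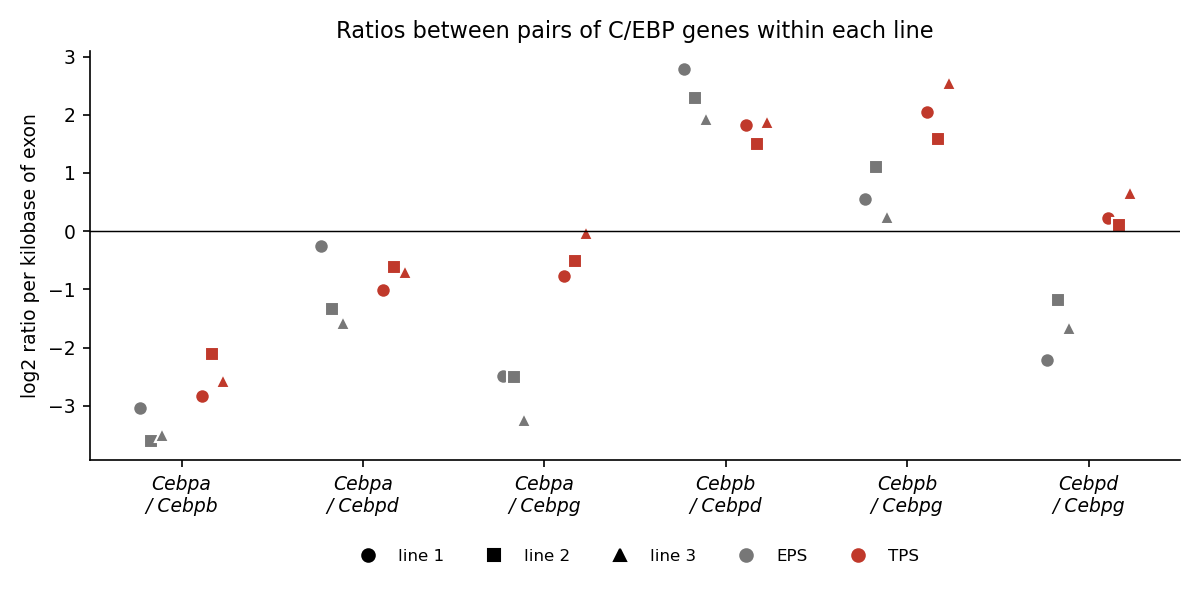
Log2 ratio per kilobase of exon between pairs of C/EBP genes in each of the 3 TPS and 3 EPS lines. The groups are apart in 5 of 6 pairs, with the widest gaps in the ratios to Cebpg, and overlap for Cebpa to Cebpd.

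As a sum, fibroblast markers were higher in the same lines as Cebpa, Cebpb and Cebpd. The summed level of 16 fibroblast markers was 6910, 3680 and 4050 CPM in the TPS lines and 362, 1500 and 1540 CPM in the EPS lines. Of these 16 genes, 9 were called higher in TPS lines, 0 lower, and 12 had all TPS lines above all EPS lines. The groups overlapped for Col6a3, Postn, Lum and Dcn, which were not called. The count of calls fell to 3 without TPS line 1 or EPS line 2, to 5 without TPS line 3 and to 6 without EPS line 3. It was 7 without EPS line 1 and 3 with the line number as a replicate block. It rose to 11 without TPS line 2 and to 12 in DESeq2. Col1a1, a chain of type I collagen, was at 1830 ± 494 and 297 ± 190 CPM (SD, n = 3 each; log2 fold change 2.62, edgeR adjusted p = 0.0178), and Col1a2, its partner chain, was higher too (log2 fold change 2.07, adjusted p = 0.0246, with the call lost without TPS line 1 or EPS line 2). No fibroblast marker was at the floor of 3 counts in every library.

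EPS line 1 was the lowest line for the fibroblast sum, for Cebpb and for Cebpd. Cebpa, by contrast, spanned 1.85 to 2.29 CPM over EPS lines whose fibroblast sums spanned 362 to 1540 CPM. Among TPS lines, line 1 had the highest fibroblast sum (6910 CPM) but the lowest Cebpa (7.51 CPM). For Cebpb (30.5 CPM) and Cebpd (21.5 CPM) it lay between the other TPS lines. TPS line 2 was the lowest TPS line for the fibroblast sum (3680 CPM), for Cebpb and for Cebpd. The part of fibroblast RNA in the higher Cebpa, Cebpb and Cebpd was not tested.

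The sum of 8 macrophage markers was 377, 84.3 and 168 CPM in TPS and 99.4 to 109 CPM in EPS lines, with 1 of 8 called higher, 6 without TPS line 2 and 0 without EPS line 1 or EPS line 2. Adgre1, the F4/80 antigen, and Cd68, a lysosomal protein, were the most abundant and were not called. The part of macrophage RNA in the C/EBP levels was not tested. Of 7 adipocyte markers, which summed to 1.81 to 10.7 CPM in TPS and 1.6 to 4.15 CPM in EPS lines, Lep was at 0 and Cfd at no more than 3 counts in every library. Only Fabp4 of them was tested, and it was not called.

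Trophectoderm markers summed to 144, 602 and 219 CPM in TPS and 103 to 178 CPM in EPS lines, with Cdx2 and Gata3 higher among 8, while the most abundant, Tfap2c and Krt8, were not called. The call on Cdx2 was lost in 4 of 6 leave-one-out fits and that on Gata3 in 3, with none of the 8 called without TPS line 2 and 4 called higher without TPS line 1. Among 8 primitive endoderm markers, whose sum was 106 to 142 CPM in TPS and 138 to 194 CPM in EPS lines, Gata6, Sox17, Pdgfra and Dab2 were higher and Lama1 was lower, with the call on Pdgfra lost in 4 of 6 leave-one-out fits and that on Dab2 without EPS line 1 or EPS line 2, where 2 in place of 4 were higher. Their part in the C/EBP levels was not tested. The labels were checked on 8 TPS markers, led by Zscan4c and Gm5662, which summed to 179 to 222 CPM in TPS and to no more than 0.0979 CPM in EPS lines, all 8 called higher. Pluripotency markers summed to 3330 to 3840 CPM in TPS and 5870 to 7500 CPM in EPS lines, with 4 of 8 called lower, the abundant Dppa5a and Tdgf1 included (Tdgf1 lost in 4 of 6 leave-one-out fits). Without TPS line 1 the count was 2, with Pou5f1 lost too (edgeR adjusted p = 0.0536).

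**Figure D4:**
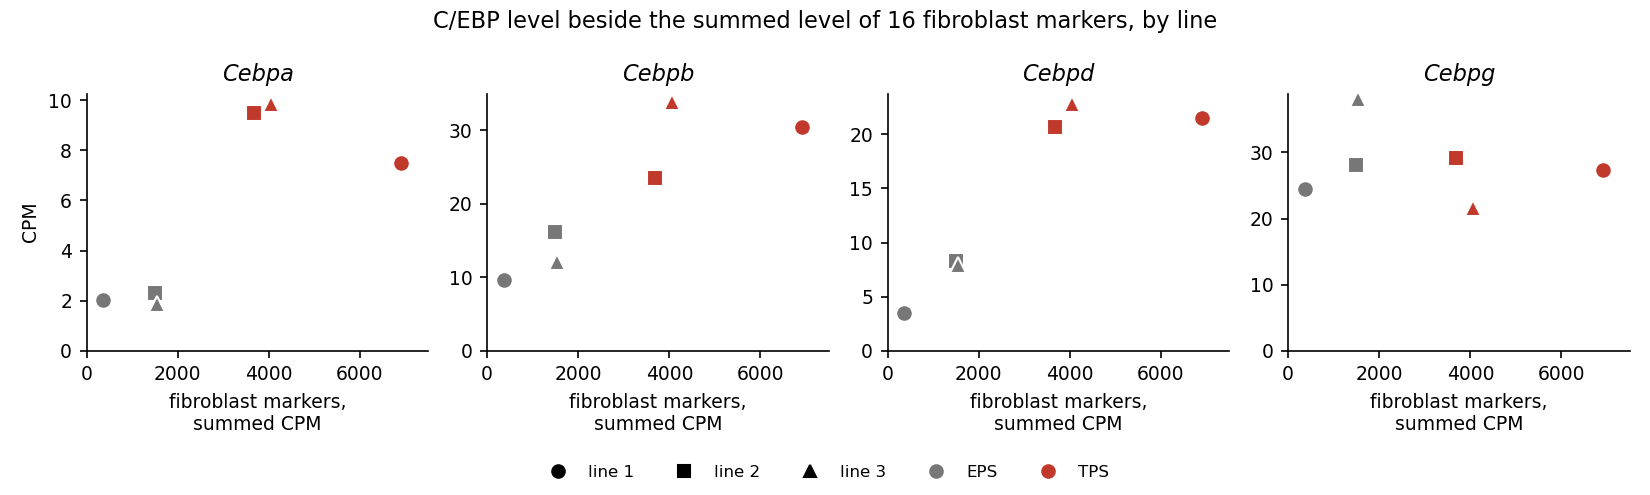
Level of Cebpa, Cebpb and Cebpd (CPM) against the summed level of 16 fibroblast markers (CPM) in each of the 6 lines. TPS lines lie to the upper right, and among EPS lines Cebpb and Cebpd are lowest in line 1, which has the lowest fibroblast sum (362 CPM), while Cebpa stays between 1.85 and 2.29 CPM. Among TPS lines, line 1 has the highest fibroblast sum (6910 CPM) but is lowest for Cebpa and in the middle for Cebpb and Cebpd.

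The other genes of the pathway were taken from 9 lists with 103 different genes beside the family, of which 85 were tested. The counts of each list stand beside 14.4% called higher and 7.34% called lower over all tested genes. In the retinoic acid receptor targets that the study names, which include Cebpa, 7 of 7 were called higher. Those genes were named for these cells, so the count is not independent evidence of their direction. Stra8, a gene of meiotic entry, was at 75.3, 54.3 and 56.3 CPM in the TPS lines and at most 0.359 CPM in any EPS line (log2 fold change 7.98, SE 0.422, edgeR adjusted p = 0.000152). Rarb, for the receptor RARβ, was at 1.0 ± 0.0834 CPM in TPS lines and had no count in any EPS library, so that it was at least 4.2-fold higher against a floor of 3 counts per library (edgeR adjusted p = 0.00368).

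Hoxb1, a hindbrain homeobox gene, had a log2 fold change of 6.26 (edgeR adjusted p = 0.0152) and varied from 1.52 CPM in TPS line 1 to 18.2 CPM in TPS line 3. Cyp26a1, which breaks down retinoic acid, was at 0.649, 4.58 and 1.87 CPM in TPS lines and no more than 0.206 CPM in EPS lines (log2 fold change 4.39, edgeR adjusted p = 0.015, and 0.0502 without EPS line 1). Hoxa5, another homeobox gene, had a log2 fold change of 3.92 (edgeR adjusted p = 0.00576). TPS line 1 was the lowest of the TPS lines for Cyp26a1, Hoxa5, Hoxb1 and Cebpa, and the highest for Stra8. Cebpa had the smallest log2 fold change of the 6 targets with counts in EPS lines, and Rarb is known only by its bound. The median of the 7 was 4.39, or 3.92 with Rarb at its bound, while the median over all tested genes was about 0.

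Among 14 bZIP genes that can pair with C/EBPs or share their sites, Atf4 was the single gene called by edgeR, and it was lower in TPS lines. That count is near the share over all tested genes, 7.34% called lower. The list held 1 gene called higher and 2 lower without EPS line 1, and 2 lower without EPS line 3. DESeq2 called 1 gene of the list higher and 4 lower. Atf4, the main factor of the amino acid response and a partner of C/EBPβ and C/EBPγ, was at 167, 240 and 221 CPM in TPS lines and 385, 366 and 401 CPM in EPS lines (log2 fold change -0.88, SE 0.159, edgeR adjusted p = 0.01). The groups did not overlap. Ddit3, for CHOP, was at 8.03 ± 2.34 and 9.88 ± 2.81 CPM (SD, n = 3 each), with no call (edgeR adjusted p = 0.531). Fos, an AP-1 subunit, was at 9.55 to 20.9 CPM in TPS lines and at 8.81, 380 and 70.1 CPM in EPS lines, and was not called (edgeR adjusted p = 0.0676). Atf2, a CRE-binding factor, was not called at a log2 fold change of 0.16.

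Of 14 amino acid response genes, which carry C/EBP-ATF sites or follow ATF4, 9 were called lower in TPS lines and 0 higher, with a median log2 fold change of -0.77. Asns, for asparagine synthetase, was at 395, 493 and 400 CPM in TPS lines and 1440, 972 and 992 CPM in EPS lines (log2 fold change -1.4, SE 0.194, edgeR adjusted p = 0.00438). Cth, for cystathionine gamma-lyase, had the largest fall, from 201 ± 66.8 CPM in EPS to 28.2 ± 9.44 CPM in TPS lines (SD, n = 3 each; log2 fold change -2.83, edgeR adjusted p = 0.00323). Trib3, a pseudokinase induced by ATF4 and CHOP, had a log2 fold change of -1.61 (edgeR adjusted p = 0.0191, and up to 0.066 without TPS line 1 or TPS line 3, where its call was lost). Chac1, which degrades glutathione, had a log2 fold change of -2.17 (edgeR adjusted p = 0.0379), and its call was lost without TPS line 1, TPS line 3, EPS line 1 or EPS line 3.

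The serine and one-carbon enzymes Psat1, Shmt2 and Mthfd2, the transporter chain Slc3a2 and the stress protein Sesn2 were the other 5 called lower, with log2 fold changes from -1.27 to -0.64. Of these, the call was lost in 4 of 6 leave-one-out fits for Sesn2, which was also not called with library size as the sole scaling, in 3 for Mthfd2 and in 1 for Slc3a2. Phgdh, the entry enzyme of serine synthesis, was not called (log2 fold change -0.51, edgeR adjusted p = 0.159), nor was Ddit4, an inhibitor of mTORC1 (-0.74, edgeR adjusted p = 0.405). Without TPS line 1 the list held 4 calls in place of 9.

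In 12 genes of LIF and STAT3 signalling, which induces Cebpb and Cebpd in other cells, calls went both ways, 3 higher and 4 lower. Klf4, a pluripotency factor downstream of STAT3, fell by 2.66 on the log2 scale, from 691 ± 195 CPM in EPS to 109 ± 16.5 CPM in TPS lines (SD, n = 3 each; edgeR adjusted p = 0.00149). Lifr, the LIF receptor, and Stat3 were lower too, at log2 fold changes of -0.8 and -0.64 (edgeR adjusted p = 0.01 and 0.0153, and for Stat3 0.06 without TPS line 3). Socs3, a feedback inhibitor of the pathway, was lower at -1.42 (edgeR adjusted p = 0.0305). Lif, the ligand, and the kinases Jak2 and Jak1 were higher, at 1.12, 1.06 and 0.49 (edgeR adjusted p = 0.0475, 0.0182 and 0.0493). Lif was at 37.2, 22.2 and 34.0 CPM in TPS lines and 8.29, 18.8 and 15.8 CPM in EPS lines. Its order among TPS lines was that of the fibroblast marker sum, and EPS line 1 was lowest for both. The part of fibroblast RNA in Lif was not tested. The receptor chain Il6st and the kinase gene Pim1 were not called.

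The calls on Klf4 and Lifr were kept whichever line was left out. The call was lost in 4 of 6 leave-one-out fits for Socs3 and Jak2, in 5 for Lif and in all 6 for Jak1. The list's median was -0.19, where the median over all tested genes was about 0. With library size as the sole scaling it was -0.04, where that over all tested genes was 0.14. Calls went both ways, so the median does not stand for a common direction.

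Of 14 regulators of C/EBP RNA or protein, 1 was called higher and 3 lower, and the count of higher calls was 2 without TPS line 2, without EPS line 2 and with library size as the sole scaling. Runx1, a factor that binds the Cebpa enhancer in blood cells, was at 12.6, 13.6 and 10.8 CPM in TPS lines and 3.0, 5.82 and 3.41 CPM in EPS lines (log2 fold change 1.6, SE 0.313, edgeR adjusted p = 0.0128). Trib1, an adaptor that marks C/EBPα for degradation, was lower at 16.4 ± 3.48 against 30.8 ± 6.75 CPM (SD, n = 3 each; log2 fold change -0.9, edgeR adjusted p = 0.0329). The call on Trib1 was lost in 5 of 6 leave-one-out fits and with library size as the sole scaling, as was that on Rps6ka1 (-0.55, edgeR adjusted p = 0.0486), a kinase that phosphorylates C/EBPβ. Trib3, given above, was the third gene called lower, and none of the 3 was called without TPS line 1 or without TPS line 3. Calr and Celf1, which bind C/EBP transcripts, were not called (log2 fold changes 0.1 and -0.02), and neither were Gsk3a and Gsk3b, for kinases of C/EBPα and C/EBPβ (-0.05 and 0.02).

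Among 12 adipocyte genes downstream of C/EBPs, 5 were tested, 2 called higher and 1 lower. Cd36, a fatty acid transporter, was at 128, 16.6 and 34.1 CPM in TPS lines and 3.85, 4.21 and 8.51 CPM in EPS lines (log2 fold change 3.43, edgeR adjusted p = 0.0189), and its call was lost without EPS line 1 or EPS line 2. TPS lines 1, 3 and 2 had the same order, from high to low, for Cd36 and for the macrophage, fibroblast and adipocyte marker sums. The part of these cell types in Cd36 was not tested. Lpl, for lipoprotein lipase, was higher at a log2 fold change of 1.24 (edgeR adjusted p = 0.0141, and 0.0507 without EPS line 2). Scd1, a fatty acid desaturase, was lower at 101 ± 22.4 against 447 ± 101 CPM (SD, n = 3 each; log2 fold change -2.15, edgeR adjusted p = 0.00219). Pparg, the main partner of C/EBPα in fat cells, was at 0.415 ± 0.142 and 0.156 ± 0.083 CPM and was not tested. Fabp4 and Slc2a4 were not called.

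Among 12 myeloid genes, 7 were tested and 1 was called higher, Cd14, a co-receptor of Toll-like receptors. That count is near the share over all tested genes, 14.4% called higher. Cd14 was at 42.1, 9.24 and 18.7 CPM in TPS lines and 4.47 to 6.04 CPM in EPS lines (log2 fold change 2.15, edgeR adjusted p = 0.0239), and its call was lost when any of the 3 EPS lines was left out. Without TPS line 2, 4 genes of the list were called higher, and limma called 0. Lyz2, for lysozyme, was at 1160 CPM in TPS line 1 and at 169 and 283 CPM in the other 2 TPS lines, against 133 to 190 CPM in EPS lines, and was not called. Csf2ra, a GM-CSF receptor chain, had a log2 fold change of -0.14. Elane and Ngp, granule genes of neutrophils, had 0 counts in every library. TPS line 1 was also highest for the macrophage, fibroblast and adipocyte marker sums. The part of these cell types in Cd14 and Lyz2 was not tested.

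Of 14 liver and acute phase genes, 8 were tested and 1 was called higher, the cytokine gene Il6 (3.18 ± 1.99 against 0.485 ± 0.12 CPM, SD, n = 3 each; log2 fold change 2.7, edgeR adjusted p = 0.0233). Its call was lost in 5 of 6 leave-one-out fits, while without TPS line 2 the list held 3 genes called higher. The part of fibroblast or macrophage RNA in Il6 was not tested. Over all tested genes, 14.4% were called higher. Ass1 of the urea cycle and the acute phase gene Saa3 were not called. Of 8 cell cycle genes linked to C/EBPα, Cdk2 was lower at 84.5 ± 2.13 against 164 ± 5.31 CPM (SD, n = 3 each; log2 fold change -0.95, edgeR adjusted p = 0.00275). Myc was higher at 15.6, 19.2 and 48.1 CPM against 5.71 to 9.1 CPM (log2 fold change 1.91, edgeR adjusted p = 0.022), with its call lost without EPS line 1 or EPS line 2. Cdkn1a and Cdk4 were not called.

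**Figure D5:**
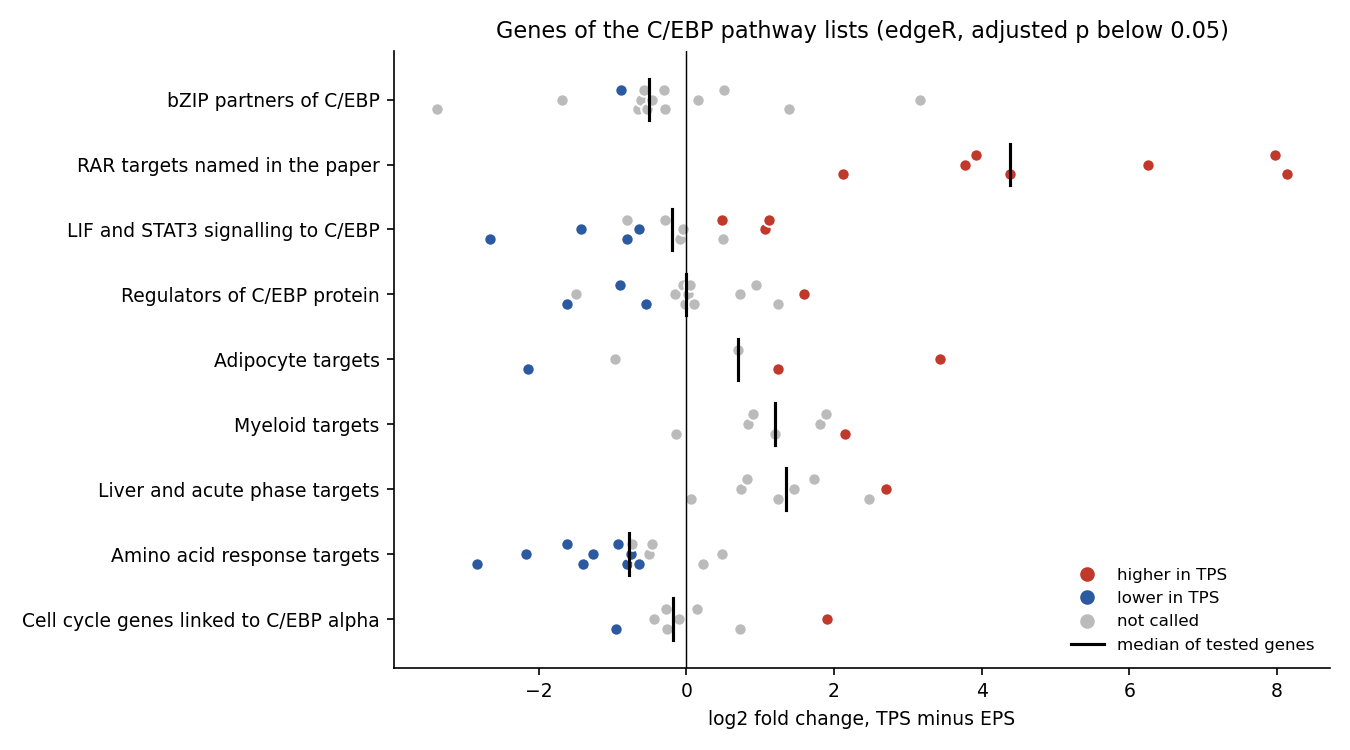
Log2 fold change, TPS against EPS, of each tested gene in the 9 lists, with calls marked by colour, a bar at each median, and Rarb at its fitted value. All 7 retinoic acid receptor targets are called higher and 9 of 14 amino acid response genes are called lower.

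The pattern over the 6 lines was compared with that of 14875 tested protein-coding genes by Pearson's r of log2(CPM + 1), as a description over lines that fall into 2 groups. Among the genes most like Cebpa were 2810459M11Rik and Zscan4-ps1, with r of 0.999 and 0.997, and 646 genes had an r above 0.95. Those most like Cebpd were Ccne2, Trafd1 and Stim2, each with r = 0.997 (429 genes above 0.95). Those most like Cebpb were Bnip2, Ampd2 and Npas3, with r from 0.992 to 0.994 (301 genes). Few genes resembled Cebpg or Cebpe, with 9 and 8 above 0.95. Nnt (r = 0.991), Xrcc4 (0.979) and Trappc8 (0.976) were the most like Cebpg, and Celf6 (0.983), Rpap3 (0.976) and Slc24a1 (0.971) the most like Cebpe, which rests on few counts.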

How the data were processed

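Poly(A) RNA was sequenced as 2 × 100 paired-end reads from 3 TPS and 3 EPS lines, each as 2 technical replicates. The authors trimmed reads with fastp 0.19.7, mapped them to mm10 (GRCm38.p6) with STAR 2.7.3a, and deposited counts per gene without normalization. The counting tool, annotation release and use of strand are not given in the sources used here. Libraries held 14652746 to 21821707 counts in TPS and 13676051 to 20077288 in EPS. Reads carried no molecular identifiers, so the binomial tests between technical replicates allow for counting error only.

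Groups, lines and technical replicates were taken from the labels. Technical replicates were summed to 6 lines. The labels do not say that lines were derived separately, so p-values measure only the spread between these lines. Of 55401 gene IDs, 55141 matched GENCODE M21 once versions were removed. Genes were filtered by filterByExpr (minimum count 10, minimum total 15), scaled by TMM factors, and compared by the quasi-likelihood test of edgeR 4.0.16 in R 4.3.3, with Benjamini-Hochberg adjustment over 17468 genes. The fit was tested on counts simulated with the same spread (dispersion) for all genes. Of 199 tested genes changed 4-fold, 177 were called, with 13 false calls. Smaller changes and differences in spread between genes were not simulated. TPM used the union of exons. Alternatives were DESeq2 1.42.0, limma 3.58.1, other scalings, filters and thresholds, separate libraries, and leaving out each line. The choice of transcript length was added after seeing the data.

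The members and lists were chosen with earlier results of these data known. Genes named are the members, the retinoic acid receptor targets, up to 4 called genes of largest fold and 2 uncalled genes of largest CPM per list, the 2 most abundant markers and those at 3 counts or fewer per marker list, and the 3 genes most like each member. Other genes were named after their values were seen. A few genes that this rule selects are not reported here.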

Additional observations from a re-analysis of the deposited data

How the results depend on the processing

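Cebpa, Cebpb and Cebpd kept their direction in all 18 alternatives, with log2 fold changes of 1.98 to 2.35, 1.02 to 1.41 and 1.39 to 1.9. Cebpg stayed uncalled at -0.37 to -0.03 and Cebpe at 0.45 to 1.62 in the 14 alternatives that tested it. A stricter threshold is among these alternatives and reuses the main fit, so no direction could change in it and no call could be gained. Leaving out a line gave 2.04 to 2.23 for Cebpa, 1.02 to 1.41 for Cebpb (1.09, adjusted p = 0.0529, without TPS line 3) and 1.39 to 1.9 for Cebpd. At an adjusted p below 0.01, Cebpb (1.21, 0.0142) and Cebpd (1.72, 0.0124) were no longer called. That stricter threshold left 873 genes higher and 258 lower, and 4 higher and 6 lower of the listed genes, against 2509, 1282, 15 and 18. With 12 libraries as separate samples 4067 genes were higher, 3610 lower and 27 listed genes higher. That setting treats the technical replicates of a line as if they were lines, so its counts overstate the replication. DESeq2 called 1 higher and 4 lower of the bZIP genes (edgeR 0 and 1), 3 myeloid genes higher (edgeR 1), 2 liver and 2 regulator genes higher (edgeR 1 each), and 5 trophectoderm and 3 macrophage markers higher (edgeR 2 and 1). Library size as the sole scaling gave 745 lower genes, and it moved the median log2 fold change of all genes from 0 to 0.14. Leave-one-out fits gave 1617 to 2234 higher and 493 to 1047 lower genes, and 8 to 19 higher and 10 to 16 lower of the listed genes, with fewer lines in each fit. With the line number as a replicate block, Cebpa, Cebpb and Cebpd were still called (adjusted p = 0.0176, 0.0438 and 0.0276), and 721 genes were lower. Same-numbered lines did not deviate together (correlations 0.0264, -0.142 and 0.0109), so the numbers were not used as pairs. Apart from the stricter threshold and the separate libraries, the cause of these shifts was not tested. Cebpe rested on at most 9 counts in a library.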
